A study of Homo sapiens with 4 samples.

Results

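The nuclear receptors are transcription factors that carry signals of small fat-soluble molecules to DNA. Here 46 human members were taken by gene symbol from a table of 63241 genes of which 42640 carry a symbol. RNA was sequenced from the human stellate cell line LX-2 (stellate cells deposit the scar matrix of the liver) in 4 groups of 1 library each, all starved for 24 h in 0.5% serum. The groups were TGF-β (20 ng/mL) with BDS4 (5 µM), TGF-β with RVX-208 (5 µM), TGF-β alone, and a control without TGF-β, and exposure lasted 24 h. DMSO appears in the description of the TGF-β library and not in that of the control, so vehicle and cytokine cannot be told apart for that pair. RVX-208 (apabetalone) inhibits BET bromodomain proteins with a preference for their second bromodomain. BDS4 carries only a code name, and the study is titled for covalent inhibitors of the first bromodomain. The column of the BDS4 library was matched through the sample's description alone.

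Most members bind DNA through a zinc finger domain and carry a pocket for a ligand such as a steroid, retinoic acid, vitamin D, a bile acid, an oxysterol, a fatty acid or thyroid hormone. Many pair with a retinoid X receptor (RXR), and ligand binding exchanges corepressor proteins for coactivators. Stellate cells store retinoids when quiescent, and PPARG, VDR, NR1H4 and NR4A1 have each been studied as brakes on liver scarring.

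The table held a single row for each of the 46 symbols. Of these, 30 reached 1 CPM (counts relative to the library's total, scaled by the TMM method) in at least 1 library and 25 did so in all 4. NR1H4 was the only member that passed through 1 library alone. The 16 others stayed under 1 CPM, with at most 18 counts in any library, and 3 of them (PGR, NR5A1 and NR0B1) had 0 counts throughout. A count of 0 allows up to 3 counts, which is 0.147 CPM with BDS4, 0.178 with RVX-208, 0.136 with TGF-β and 0.126 in the control. Of the family's branches, 15 of 18 thyroid hormone receptor-like members passed, 8 of 12 RXR-like, 3 of 8 steroid receptor-like, 3 of 3 NR4A and 1 of 3 in the NR5A and NR6A groups. Neither of the 2 members that lack a DNA-binding domain passed. Some receptors known from hepatocytes were near 0: HNF4A had at most 3 counts, NR1I2 (PXR) at most 3 and NR1I3 (CAR) at most 3. Others known from liver were not near 0 throughout, as PPARA had 1116 counts in the control. NR1H4 had 319 counts with BDS4 but at most 9 in the other libraries. NR0B2 (SHP), a repressor induced by the bile acid receptor in liver, had 2 counts with BDS4 and 0 in the others.

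With 1 library per group no test across cultures was possible. Genes that passed 1 CPM are called tested. The rule for a call asked for a 2-fold or larger ratio of scaled counts with a 95% counting interval that left out 1. Brackets give those intervals, which cover counting error only. They may be too narrow even for that, since amplified reads without molecular identifiers are not independent molecules. Library totals ran from 17022369 counts (TGF-β with RVX-208) to 22503094 (control). Of 13 stellate markers 10 reached 1 CPM, among them VIM and COL1A1, while LRAT, which serves retinoid storage, had 0 counts in all 4 libraries. Summed CPM of all 13 was 4642 with BDS4, 8233 with RVX-208, 10124 with TGF-β and 6478 in the control. COL1A1 carried much of that difference (103, 2936, 4705 and 2075 CPM in the same order). PDGFRB (5.98, 63.3, 136 and 35.0 CPM), SPARC (166, 594, 974 and 640 CPM) and TAGLN (242, 541, 700 and 378 CPM) were also lowest with BDS4. COL1A2, ACTA2 and HAND2 were below their TGF-β levels with BDS4 as well. VIM was at 4080, 4052, 3551 and 3290 CPM and LHX2 at 16.0, 11.3, 11.3 and 14.1 CPM. Like these, DES and RELN were higher with BDS4 than with TGF-β. Of 6 hepatocyte markers, ASGR1 (2.80, 6.48, 7.88 and 5.32 CPM in the same order) and SERPINA1 (1.47, 2.08, 3.58 and 2.34 CPM) passed 1 CPM, TTR and CYP3A4 had 0 counts and ALB and APOA1 had 4 counts or fewer. Mitochondrial ribosomal RNA took 0.903% of counts with BDS4, 0.230% with RVX-208, 0.248% with TGF-β and 0.212% in the control. Summed CPM of 5 epithelial markers was 172, 493, 762 and 438 in the same order, and EPCAM had at most 4 counts. The part of these differences in the results below was not tested. In bulk RNA, fewer cells of a kind and less RNA per cell cannot be told apart.

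Promoter windows are shown for NR1H4, NR4A3 and NR6A1, members that rose with BDS4 and have a single window in the table used (NR3C2 has 4). Each line gives the 250 bases before the RefSeq start (GRCh38.p14), 5′ to 3′ on the gene's strand. Capitals mark AGGTCA, the core hexamer that nuclear receptors bind, in NR1H4, and TGACG, the core of the cAMP response element, in the other 2, on either strand.
NR1H4: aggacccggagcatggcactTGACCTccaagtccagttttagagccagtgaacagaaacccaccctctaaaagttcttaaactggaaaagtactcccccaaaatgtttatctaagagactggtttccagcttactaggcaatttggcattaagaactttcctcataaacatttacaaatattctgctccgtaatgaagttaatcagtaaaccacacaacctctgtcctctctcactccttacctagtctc
NR4A3: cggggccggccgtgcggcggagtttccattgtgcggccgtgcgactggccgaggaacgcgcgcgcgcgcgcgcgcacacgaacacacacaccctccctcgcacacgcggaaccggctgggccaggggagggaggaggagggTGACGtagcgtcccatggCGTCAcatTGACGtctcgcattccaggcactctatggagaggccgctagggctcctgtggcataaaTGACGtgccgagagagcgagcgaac
NR6A1: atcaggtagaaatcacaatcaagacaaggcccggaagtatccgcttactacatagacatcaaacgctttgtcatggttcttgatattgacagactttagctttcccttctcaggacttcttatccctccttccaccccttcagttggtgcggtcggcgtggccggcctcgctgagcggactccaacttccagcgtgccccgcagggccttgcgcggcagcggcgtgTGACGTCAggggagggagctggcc
The windows lie at chr12:100503110-100503359 (plus strand), chr9:99821635-99821884 (plus strand) and chr9:124771312-124771561 (minus strand). NR1H4 holds the hexamer once, as its reverse complement, 230 bases before the start, a start that lies inside the gene as GENCODE bounds it. NR4A3 holds the TGACG core 4 times, with first bases 109, 91, 83 and 25 bases before the start, and 83 of 35116 windows (0.236%) hold as many or more. The NR4A3 start also lies inside the gene, which GENCODE begins at 99821855, so the copy at 25 bases lies within it. NR6A1 holds the full palindrome TGACGTCA, which is read as TGACG on both strands. That palindrome is in 1.65% of all windows, TGACG in 21.2% and AGGTCA in 12.1%. Windows were at hand for 41 members, of which 14 (34.1%) held TGACG and 11 (26.8%) held AGGTCA in at least 1 of their 96 windows. Over all 27305 genes with windows the shares counted the same way were 24.9% and 14.6%, and members had more windows per gene. VDR, NR4A2, NR2F6, HNF4G and NR0B2 had none. These are matches of letters, and no binding was measured.

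Levels differed widely between members. In FPKM, fragments relative to gene length and library total, NR2F2 (COUP-TFII), an orphan receptor of mesenchymal cells, was the highest member in every library, at 21.1 FPKM with BDS4, 31.4 with RVX-208, 31.2 with TGF-β and 79.9 in the control. PPARD, a fatty acid receptor found in most cells, came next in the TGF-β and RVX-208 libraries and was ranked 3 in the others (15.3, 17.1, 17.7 and 16.0 FPKM in the same order). Other high members in the control were NR2F6 (19.7 FPKM), NR1D1 (12.1), ESRRA (11.6) and THRA (10.3). VDR, the vitamin D receptor, ranked 2 with BDS4, 5 with RVX-208, 5 with TGF-β and 14 in the control. The bile acid receptor NR1H4 (FXR) ranked 17 with BDS4 (1.85 FPKM), 26 with RVX-208 (0.0662), and last of 30 with TGF-β (0.00573) and in the control (0.0334). Summed FPKM of all 46 members was 137 with BDS4, 159 with RVX-208, 174 with TGF-β and 213 in the control, and NR2F2 made up 15.5%, 19.8%, 17.9% and 37.6% of these sums. These ranks and sums rest on the gene lengths behind the deposited FPKM. For RARB and THRB the length implied by counts and FPKM was well above the exon bases in GENCODE 29. The order between members is therefore uncertain.

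**Figure D1:**
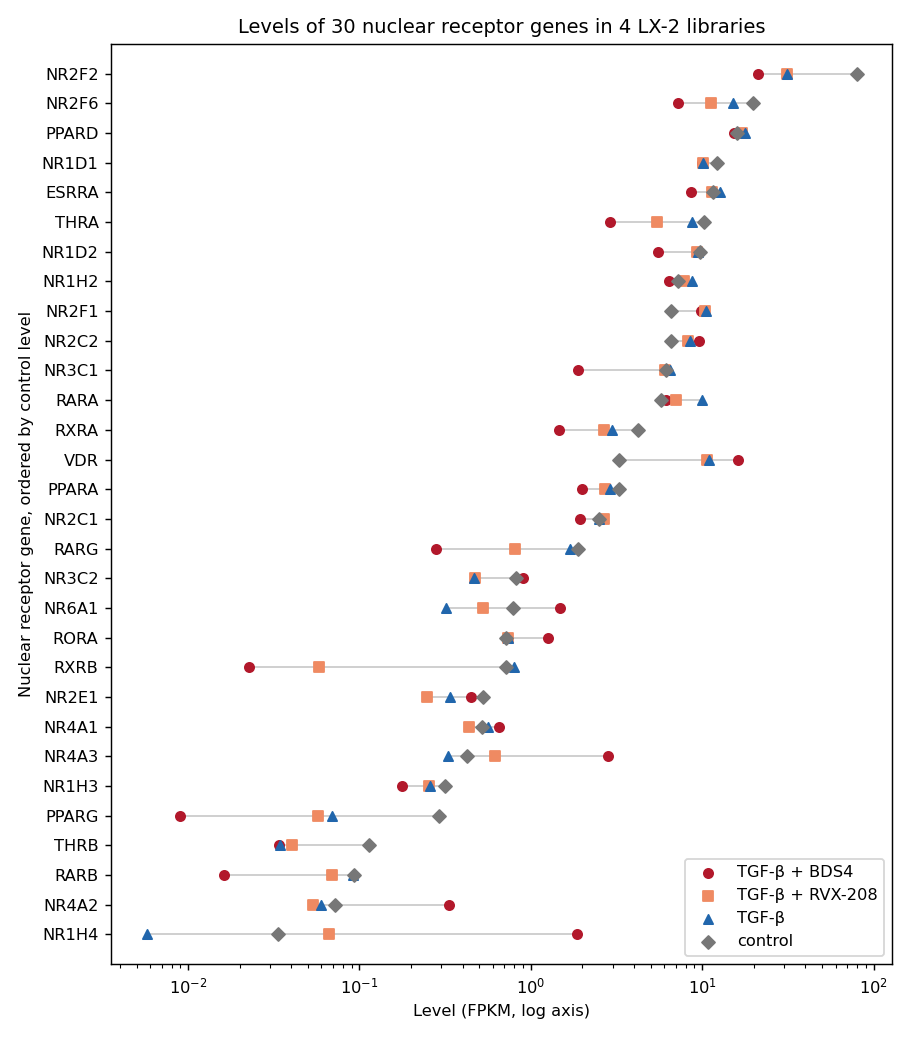
Levels of the 30 nuclear receptor genes that passed 1 CPM, as FPKM on a log axis, with 1 point per library and a grey line spanning the 4 libraries. NR2F2 is highest in each library (21.1 to 79.9 FPKM), and NR1H4 and RXRB have wide spans. The order between members rests on the gene lengths behind the deposited FPKM.

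Compared with TGF-β alone, 5 members were higher and 6 lower with BDS4. The 5 were NR1H4, NR4A2, NR4A3, NR6A1 and NR3C2, and the 6 were NR3C1, RARG, RARB, THRA, PPARG and RXRB. These 11 of 30 tested members (36.7%) stand beside 32.2% of all 16099 genes (14.5% higher and 17.7% lower), so the family as a whole was called about as often as any gene. The median log2 ratio was -0.31 over the 30 members and -0.01 over all genes.

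NR1H4 lies on chromosome 12 (100473708 to 100564413, GRCh38) and encodes FXR, which senses bile acids and is mainly known from liver and gut. It had 319 counts (15.6 CPM) with BDS4, against 9 counts (0.535 CPM) with RVX-208, 1 count (0.0453 CPM) with TGF-β and 6 counts (0.251 CPM) in the control. Only the BDS4 library was high, and NR1H4 was tested through that library alone. BDS4 was 345-fold above TGF-β on that single count (log2 ratio 8.43, 5.94 to 13.74) and 29.3-fold (15.2 to 64.6) above RVX-208. RVX-208 itself was 11.8-fold above TGF-β (1.64 to 517) on 9 counts against 1. No other gene shared exon bases with it in GENCODE 29. Of 12 FXR targets, NR0B2 included, 2 were tested. SDC1, a cell surface proteoglycan, fell 3.26-fold with BDS4 (141 CPM, against 459 with TGF-β), and ICAM1, an adhesion molecule, stood at 116 CPM with BDS4 and 89.4 with TGF-β. FGF19 had 4 counts with BDS4 and 0 in the others, and SLC51B had 0 throughout.

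The NR4A receptors (NR4A1, NR4A2 and NR4A3) are induced within minutes by many stimuli and act without a classical ligand. NR4A3 stood at 21.1 CPM with BDS4, against 4.40 with RVX-208, 2.31 with TGF-β and 2.85 in the control. It rose 9.15-fold (6.83 to 12.5) over TGF-β with BDS4, and its 1.90-fold ratio with RVX-208 (1.31 to 2.77) did not reach 2. NR4A2 had 111 counts (5.44 CPM) with BDS4, against 14 (0.832) with RVX-208, 20 (0.906) with TGF-β and 25 (1.05) in the control, a 6.01-fold rise with BDS4 (3.71 to 10.2). NR4A1 varied least of the 3, with 302, 158, 264 and 251 counts in the same order and a 1.24-fold ratio of BDS4 to TGF-β (1.05 to 1.47). Other immediate early genes were listed beside them. Of 13 tested, counting the NR4A genes, 8 rose and 2 fell with BDS4 (median log2 ratio 1.49). NR4A2 and NR4A3 are among the 8. Over all genes 14.5% were higher and 17.7% lower. FOS, a subunit of AP-1, stood at 22.6 CPM with BDS4 against 2.94 with TGF-β, while EGR2 fell to 2.70 CPM against 36.1 and IER2 to 0.932 CPM against 39.0.

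NR6A1 (germ cell nuclear factor), an orphan receptor known from embryonic stem cells and germ cells, stood at 14.9 CPM with BDS4, against 5.05 with RVX-208, 2.99 with TGF-β and 7.03 in the control. It was 4.99-fold higher with BDS4 than with TGF-β (3.81 to 6.61), and the BDS4 level was also above that of the control. The mineralocorticoid receptor gene NR3C2 was at 16.4 CPM with BDS4, 8.14 with RVX-208, 7.93 with TGF-β and 13.2 in the control. Its 2.07-fold rise with BDS4 (1.72 to 2.50) lay at the edge of the rule and fell short of it under total-count scaling (log2 ratio 0.94).

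**Figure D2:**
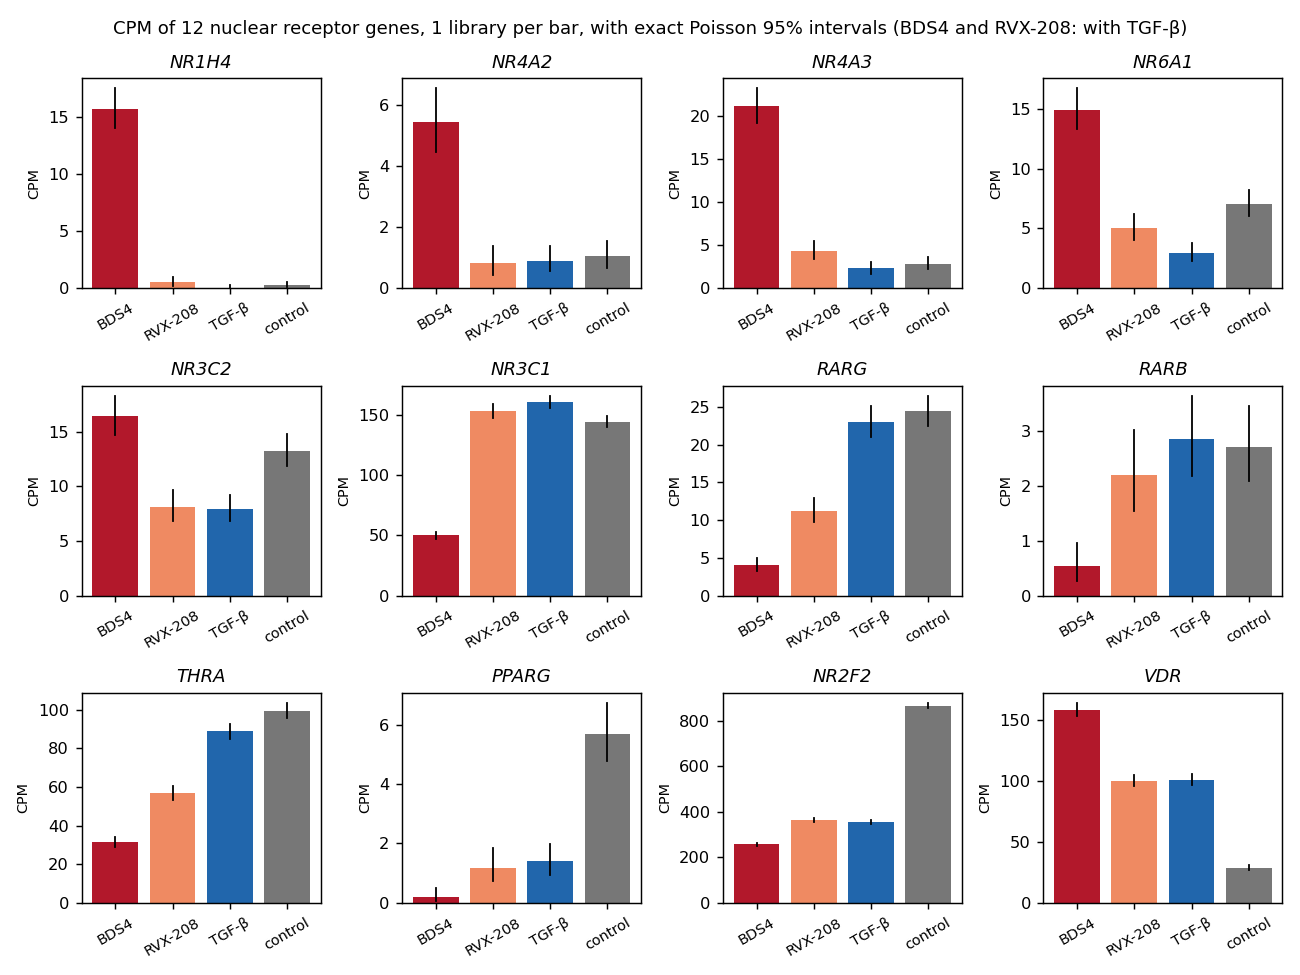
Scaled counts (CPM) of 12 nuclear receptor genes, 1 bar per library with exact Poisson 95% intervals; BDS4 and RVX-208 stand for TGF-β with that compound. NR1H4, NR4A2 and NR4A3 are high with BDS4 alone, RARG is lowest with BDS4 (4.07 CPM) and next lowest with RVX-208 (11.2 CPM), and NR2F2 is low in all 3 libraries with TGF-β.

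NR3C1, the glucocorticoid receptor gene, fell to 50.0 CPM with BDS4, against 153 with RVX-208, 161 with TGF-β and 144 in the control. The other 3 libraries lay close together, and BDS4 was 3.21-fold below TGF-β (3.00 to 3.45). Of 12 tested glucocorticoid receptor targets, 3 were higher and 1 lower with BDS4 (beside 14.5% and 17.7% of all genes). Their median log2 ratio was 0.58. FKBP5, a co-chaperone that feeds back on the receptor, rose 4.68-fold (4.45 to 4.91), to 424 CPM with BDS4 against 90.8 with TGF-β. ERRFI1 (2.75-fold) and the metallothionein MT2A (2.36-fold) rose as well, and CEBPD, a transcription factor of acute responses, fell 5.66-fold.

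All 3 retinoic acid receptor genes were below their TGF-β level with BDS4, and 2 passed the rule. RARG stood at 4.07 CPM with BDS4, 11.2 with RVX-208, 23.0 with TGF-β and 24.4 in the control. It fell 5.64-fold with BDS4 (4.47 to 7.20) and 2.05-fold with RVX-208 (1.73 to 2.43), and BDS4 was 2.76-fold below RVX-208 (2.12 to 3.62). RARB, itself a target of retinoic acid, had 11 counts (0.539 CPM) with BDS4, against 37 (2.20) with RVX-208, 63 (2.85) with TGF-β and 65 (2.72) in the control, a 5.29-fold fall with BDS4 (2.76 to 11.1). RARA was at 46.8, 50.8, 70.3 and 39.0 CPM in the same order, and no ratio reached 2. Among 9 tested retinoic acid targets, RARB included, 4 fell and 2 rose with BDS4 (median log2 ratio -0.25). Over all genes 17.7% fell and 14.5% rose. STRA6, the cell surface receptor for retinol-binding protein, fell to 5 counts with BDS4 (0.245 CPM), against 26 with RVX-208 (1.54 CPM), 173 with TGF-β (7.84 CPM) and 41 in the control (1.72 CPM). TGM2, a transglutaminase that cross-links matrix, fell 3.83-fold with BDS4, and CRABP2, which carries retinoic acid to its receptors, rose 3.40-fold (2.74 to 4.25). RDH10, which makes retinaldehyde from retinol, rose 3.95-fold (3.45 to 4.52), while ALDH1A3, which oxidises retinaldehyde to retinoic acid, stood at 19.3 CPM with BDS4 and 36.1 with TGF-β, short of the rule. Of 16 tested genes of retinoid, steroid, bile acid, vitamin D and thyroid hormone metabolism, 4 rose and 0 fell, and CRABP2, one of the 4, is also among the retinoic acid targets.

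THRA, a thyroid hormone receptor gene, fell 2.82-fold with BDS4 (2.58 to 3.09), at 31.5 CPM against 56.7 with RVX-208, 88.9 with TGF-β and 99.5 in the control. It shares 263 exon bases with NR1D1, which runs on the other strand, and the sources used here do not give the strand setting of the counting. NR1D1 stood at 27.9, 26.9, 26.4 and 30.1 CPM in the same order, within 1.5-fold throughout. THRB was at 1.57, 1.78, 1.49 and 4.73 CPM and did not pass with BDS4. HR, a corepressor that is also a thyroid hormone target, fell to 7 counts with BDS4 (0.343 CPM), against 83 with RVX-208 (4.93 CPM), 350 with TGF-β (15.9 CPM) and 177 in the control (7.41 CPM).

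PPARG, a master regulator of fat storage and a marker of quiescent stellate cells, was low in every library. It had 4 counts (0.196 CPM) with BDS4, 20 (1.19 CPM) with RVX-208, 31 (1.40 CPM) with TGF-β and 136 (5.69 CPM) in the control. BDS4 was 7.16-fold below TGF-β (2.53 to 27.9), and the 3 libraries with TGF-β were all below the control. PPARA and PPARD kept within 1.5-fold of their TGF-β level with BDS4 (log2 ratios -0.44 and -0.11). Of 10 tested PPAR targets 1 fell and 0 rose with BDS4 (beside 17.7% and 14.5% of all genes). PLIN2, which coats lipid droplets and was the one that fell, was at 3.82 CPM against 8.11 with TGF-β.

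RXRA, the main shared partner receptor, stood at 19.6 CPM with BDS4, 34.3 with RVX-208, 37.3 with TGF-β and 50.5 in the control. Its 1.90-fold lower level with BDS4 (1.68 to 2.15) missed the rule, and passed it under total-count scaling (log2 ratio -1.02). RXRB had 3 counts with BDS4, 6 with RVX-208, 107 with TGF-β and 98 in the control, a 32.9-fold fall with BDS4 (log2 ratio -5.04, -7.34 to -3.46) and 13.6-fold with RVX-208 (6.05 to 37.9). RXRB lies in the major histocompatibility region of chromosome 6 (33193588 to 33200688), where its neighbours SLC39A7 and HSD17B8 had 0 counts in all 4 libraries. Others nearby held counts throughout: RING1 had 89, 73, 91 and 115 and COL11A2 had 26, 23, 13 and 16 with BDS4, RVX-208, TGF-β and in the control, and DAXX had 31, 33, 78 and 84. SLC39A7, a zinc transporter of the endoplasmic reticulum used by most cells, shares 244 exon bases with it on the other strand. The RXRB values are therefore uncertain, and the part of read assignment in that region was not tested.

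BDS4 and RVX-208 were set against the same TGF-β library, so their ratios to it are not independent. RARG and RXRB were the members lower with both, and NR1H4 was called higher with both, against 1 count with TGF-β. The share of all genes called with both is not given, so this overlap cannot be read as a trait of the family.

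The other tested members did not meet the rule with BDS4. NR2F6 came closest, 1.95-fold lower (1.74 to 2.18), and passed under total-count scaling (log2 ratio -1.06). RORA, a clock activator, was 1.84-fold higher (1.60 to 2.12). NR1D2, a clock repressor, had a log2 ratio of -0.66, VDR 0.65, NR2F2 -0.46, ESRRA -0.47 and NR2C2 0.27. NR1H3, an oxysterol receptor (LXR), stood at 2.84 CPM with BDS4, 3.92 with RVX-208, 3.85 with TGF-β and 4.48 in the control. NR1H2, the other LXR, and NR1H3 had log2 ratios of -0.35 and -0.44, and the interval for NR1H3 (-0.94 to 0.06) included 0. Of 15 tested clock partners 6 fell and 2 rose (median -0.46). Beside this and the lists that follow, 17.7% of all genes fell and 14.5% rose. NPAS2, a partner of BMAL1, fell 6.47-fold, and NFIL3, a repressor of clock output genes, rose 2.73-fold. LXR targets had 2 of 10 higher, MYLIP and PLTP, and 2 lower, ABCA1 and SREBF1. ABCA1, a cholesterol exporter, was at 29.9 CPM with BDS4 against 118 with TGF-β. Coactivators had 2 of 20 higher and 5 lower, and corepressors 0 of 12 higher and 4 lower. The arginine methyltransferase CARM1 fell 4.21-fold (3.75 to 4.74), and PPARGC1A rose 4.25-fold (2.33 to 8.28) on 55 counts with BDS4 against 14 with TGF-β. Estrogen receptor targets had 1 of 7 higher and 2 lower, thyroid hormone targets 1 of 4 higher and 1 lower, and vitamin D receptor targets 0 of 6 higher and 1 lower.

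**Figure D3:**
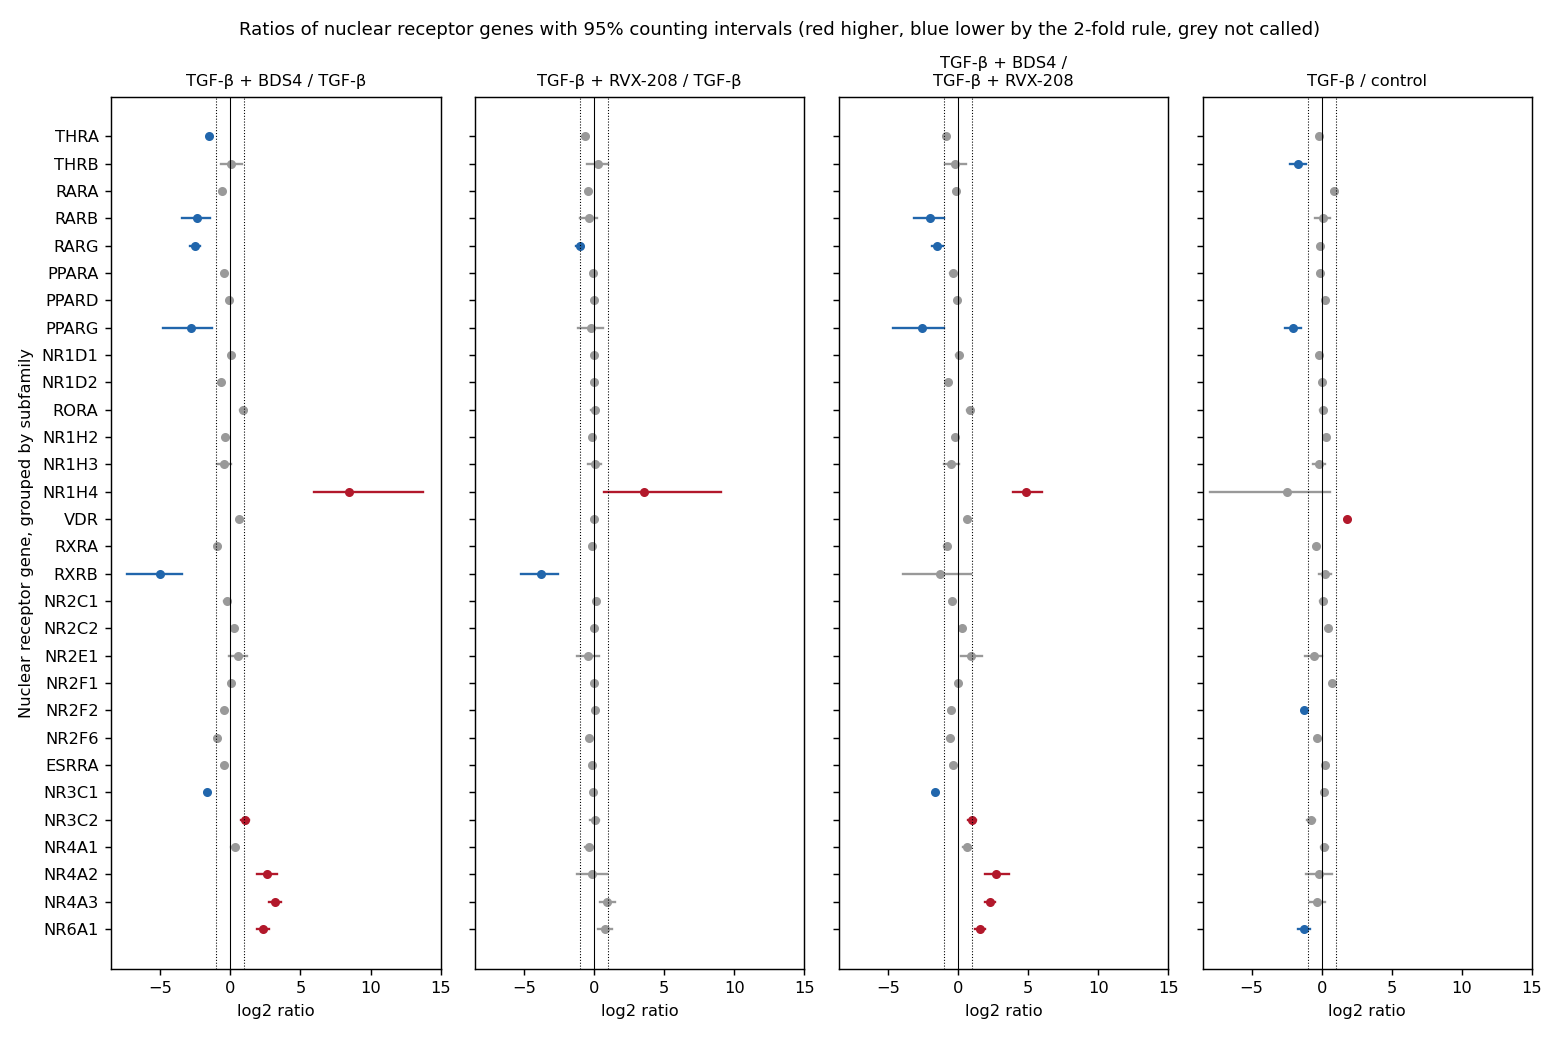
Log2 ratios of the 30 members in 4 comparisons, with 95% counting intervals; dotted lines mark a 2-fold ratio. Past the rule lie 11 members for BDS4 and 3 for RVX-208 against TGF-β, 9 for BDS4 against RVX-208, and 5 for TGF-β against the control. These are 36.7%, 10%, 30% and 16.7% of the members, beside 32.2%, 8.19%, 24.8% and 9.68% of all genes.

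Few members differed between RVX-208 and TGF-β alone. Of 30 tested, NR1H4 rose and RARG and RXRB fell (beside 8.19% of all genes, 2.94% higher and 5.25% lower), and 24 lay within 1.5-fold. The NR1H4 and RXRB calls rest on 9 and 6 counts. NR1H4 was under 1 CPM in both libraries compared and was tested only through the BDS4 library (15.6 CPM). The control had 6 NR1H4 counts, against 1 with TGF-β. The median log2 ratio was -0.04 over members and 0.00 over all genes. VDR (0.99-fold, 0.93 to 1.06), NR3C1 (log2 ratio -0.07, -0.14 to 0.00) and NR2F2 (1.03-fold, 0.995 to 1.06) stayed near their TGF-β levels. THRA was 1.57-fold lower (1.45 to 1.70) and RARA 1.38-fold lower (1.27 to 1.51), under the rule. Among list genes STRA6 fell 5.07-fold (3.35 to 7.99), HR fell 3.21-fold, and CYP24A1, the vitamin D-degrading enzyme and a classical VDR target, fell 2.98-fold (5.70 CPM, against 17.0 with TGF-β). The coactivators had 0 of 20 and the glucocorticoid receptor targets 0 of 12 called in either direction.

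BDS4 and RVX-208, the 1 pair of compounds, were compared at the same dose and time, and both share the TGF-β treatment. Relative to RVX-208, BDS4 was higher for NR1H4, NR4A2, NR4A3, NR6A1 and NR3C2 and lower for PPARG, RARB, RARG and NR3C1, which is 9 of 30 members (beside 24.8% of all genes, 11.7% higher and 13.1% lower). NR4A2 was 6.54-fold (3.74 to 12.4) and NR4A3 4.81-fold (3.75 to 6.24) higher, and NR3C1 was 3.06-fold lower (2.85 to 3.30). For NR2F1 the ratio was 0.996 (0.933 to 1.06), for NR1D1 1.04 (0.917 to 1.18) and for RARA 0.921 (0.839 to 1.01), so a 1.5-fold difference between the compounds lies outside these counting intervals. The difference for RXRB (0.413-fold, 0.0668 to 1.93) was not resolved at this depth.

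With TGF-β alone 1 member, VDR, was higher and 4, NR2F2, PPARG, THRB and NR6A1, were lower than in the control (16.7% of 30, beside 9.68% of all genes, 5.32% higher and 4.37% lower). VDR (chromosome 12, 47841537 to 47943048) stood at 101 CPM with TGF-β against 28.6 in the control, 3.53-fold higher (3.24 to 3.85), beside 158 CPM with BDS4 and 100 with RVX-208. NR2F2 (chromosome 15, 96325938 to 96340263) fell 2.44-fold (2.38 to 2.50), to 355 CPM with TGF-β against 867 in the control, and stayed low with BDS4 (258 CPM) and RVX-208 (366 CPM). Its paralogue NR2F1 moved the other way, at 98.4 CPM against 59.0, a 1.67-fold ratio (1.56 to 1.79) short of the rule. PPARG fell 4.06-fold (2.73 to 6.20), THRB 3.17-fold (2.13 to 4.82) and NR6A1 2.35-fold (1.76 to 3.18). RARA had a log2 ratio of 0.85 (0.73 to 0.97) and NR3C2 of -0.74 (-1.01 to -0.47), and neither passed. Of 6 tested VDR targets 3 fell and 0 rose. SEMA3B, a semaphorin, was at 10.0 CPM with TGF-β against 45.6 in the control, and CYP24A1 at 17.0 against 14.9. Retinoic acid targets had 3 of 9 higher, STRA6 (4.56-fold), TGM2 and PLAAT4, LXR targets 3 of 10 higher (SCD, FASN and ABCA1), and BHLHE40, a clock repressor, rose 6.03-fold (5.81 to 6.27).

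**Figure D4:**
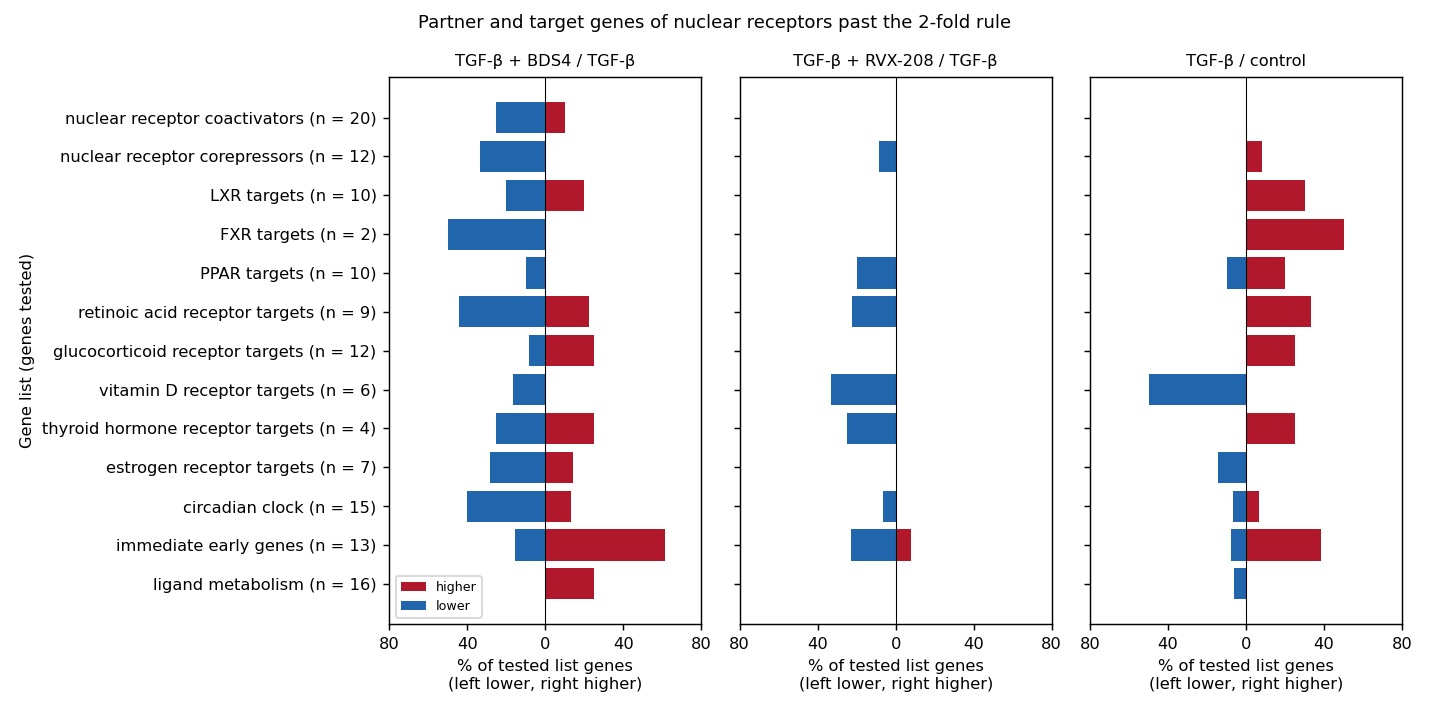
Share of tested genes in each of 13 lists of receptor partners and targets that met the 2-fold rule, lower to the left and higher to the right, in 3 comparisons. With BDS4 8 of 13 immediate early genes were higher (14.5% of all genes), and with RVX-208 no coactivator was called (8.19% of all genes).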

How the data were processed

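RNA of LX-2 cells was sequenced in 4 libraries, 1 per group, on stranded paired-end libraries per the series' design text. The submitters' processing notes name CASAVA 1.8, TopHat2 2.0.6 and the build GRCh38. Gene counts were deposited by the authors as whole numbers without scaling. The deposited FPKM values were made by the authors with StringTie 1.3.0, per the series' design text, and in 9069 genes with over 200 counts in every library they equalled counts per library total and 1 length per gene to within 0.000417%. How reads were counted, with which annotation release and strand setting, was not given in the sources used here. FPKM served to compare levels between genes, which rests on the gene lengths behind the deposited values, and counts served for ratios. Counts were scaled by TMM (edgeR 4.0.16, R 4.3.3), and 16099 genes that reached 1 CPM in some library were tested. Ratios have conditional exact (Clopper-Pearson) 95% intervals. Log2 medians use a prior count of 2. Exon overlaps and positions came from GENCODE 29 and promoter windows from RefSeq. The rule was run on simulated counts with Poisson counting error alone. That run holds no variation between cultures or from amplification, so it does not bear on how far the calls would repeat.

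The family was picked for description, and its 13 gene lists and rules were chosen, with earlier results of these data known, although membership itself rests on gene symbols alone. Members called on at least 10 counts and 8 fixed receptors are given in full. From each list up to 4 called genes with the largest ratios are named per comparison, and further list genes named were chosen after their values were seen. Some list genes are not reported here. Alternatives were total-count and DESeq2 1.42.0 scaling, no filter or 5 CPM, a 1.5-fold rule, summing of genes with shared exons, and a prior count of 0.5. Python 3.11.15 with numpy 2.4.6, scipy 1.17.1, pandas 2.3.3 and matplotlib 3.10.9 was used.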

Additional observations from a re-analysis of the deposited data

How the results depend on the processing

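No value could be compared with variation between cultures. No paired analysis was possible because each group has 1 library. Of 392 values of 17 described members under the scaling, filter, overlap and prior alternatives, 3 changed their call, all under total-count scaling, as did NR2F6 among the other tested members: RXRA and NR2F6 passed as lower with BDS4 against TGF-β (log2 ratios -1.02 and -1.06), and NR3C2 fell short with BDS4 against TGF-β (0.94) and against RVX-208 (0.94). Among the 392, only the scaling settings, and summing where exons are shared, could move a call. The prior count does not enter a call, and a filter leaves each ratio as it is. None of 460 values, those under the 1.5-fold rule included, reversed a called direction, but the 1.5-fold rule, the filters and the prior count could not reverse any. Total-count scaling gave 4 members higher and 8 lower with BDS4 against TGF-β, and it moved the median of all genes for BDS4 against TGF-β to -0.11, from -0.01. Counts of members are small and moved with the thresholds. The shares of all genes called under these alternatives are not given, so the counts cannot be read against them. With a 1.5-fold rule, 3 rose with TGF-β against the control, 10 fell with BDS4 against TGF-β, 3 rose with RVX-208 against TGF-β, and 9 rose and 7 fell with BDS4 against RVX-208. Without a filter, 7 fell with TGF-β against the control, 2 rose with RVX-208 against TGF-β, and the members' median log2 ratio with BDS4 against TGF-β was -0.11. At 5 CPM, 1 fell with RVX-208 against TGF-β. The median and count shifts follow from the genes each filter or rule admits.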
